A study of Mus musculus with 8 samples.

Results

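The 10 genes described here encode chemokines, small secreted proteins that attract leukocytes, in the stomachs of mice. They were chosen by name as rows of the deposited expression table (Ccl2, Ccl7, Ccl8, Ccl12, Ccl28, Cxcl9, Cxcl10, Cxcl12, Cxcl16 and Cx3cl1), 10 of 24481 rows with a usable gene name, and all 10 passed the filter on low values that left 16889 genes for testing. The mice were wild-type females of the inbred strain C57BL/6J, and whole-stomach RNA was sequenced 3 days after surgery, in 4 samples from adrenalectomy and 4 from sham surgery. Adrenalectomy removes the adrenal glands and with them the source of glucocorticoids, aldosterone and adrenaline, and the study asked about the role of endogenous glucocorticoids in gastric inflammation. The age of the mice, any pooling of animals and any hormone replacement are not stated in the labels. Nothing says that the samples of a group came from separate animals, so a p-value reflects only how far these samples spread.

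Chemokines bind receptors on leukocytes that are coupled to G proteins, and the cells move up the gradient. The monocyte-attracting genes Ccl2, Ccl7 and Ccl12 encode ligands of CCR2, the receptor that brings monocytes out of bone marrow and into tissue. Cxcl9 and Cxcl10 are classic interferon-induced genes, and their products attract T cells and natural killer cells through CXCR3. Cxcl12, Cxcl16, Cx3cl1 and Ccl28 are made in resting tissue by stromal, endothelial or epithelial cells, and glucocorticoids are known to restrain many inflammatory chemokine genes.

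The promoter sequences of 7 of the 10 genes were found in the RefSeq table of mouse build GRCm38.p6, which runs from 250 bases before to 50 after each start site. Ccl2, Ccl7 and Cxcl16 had no entry. Shown are Ccl12 and Cxcl10, the only members whose groups did not overlap, each with a neighbour of the same family on its chromosome, Ccl8 and Cxcl9. Capitals mark matches to an interferon-stimulated response element (ISRE, GAAA, any 2 bases and GAAA, on either strand), the kappaB consensus bound by NF-kB (either strand) or a TATA box (TATAAA on the gene's strand). The windows are Ccl12 at chr11:82101595-82101894 on the plus strand, Ccl8 at chr11:82114935-82115234 on the plus strand, Cxcl10 at chr5:92348840-92349139 on the minus strand and Cxcl9 at chr5:92328030-92328329 on the minus strand.
Ccl12: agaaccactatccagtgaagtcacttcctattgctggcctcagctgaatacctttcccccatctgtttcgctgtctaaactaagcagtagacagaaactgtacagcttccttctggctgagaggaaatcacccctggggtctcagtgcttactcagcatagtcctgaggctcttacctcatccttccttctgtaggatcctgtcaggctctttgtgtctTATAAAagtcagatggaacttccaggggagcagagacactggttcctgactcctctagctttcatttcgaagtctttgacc
Ccl8: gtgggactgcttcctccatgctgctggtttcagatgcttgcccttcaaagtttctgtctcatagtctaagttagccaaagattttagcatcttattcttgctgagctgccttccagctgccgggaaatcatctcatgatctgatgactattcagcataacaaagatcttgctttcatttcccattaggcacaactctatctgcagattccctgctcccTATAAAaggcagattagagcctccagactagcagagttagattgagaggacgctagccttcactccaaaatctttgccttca
Cxcl10: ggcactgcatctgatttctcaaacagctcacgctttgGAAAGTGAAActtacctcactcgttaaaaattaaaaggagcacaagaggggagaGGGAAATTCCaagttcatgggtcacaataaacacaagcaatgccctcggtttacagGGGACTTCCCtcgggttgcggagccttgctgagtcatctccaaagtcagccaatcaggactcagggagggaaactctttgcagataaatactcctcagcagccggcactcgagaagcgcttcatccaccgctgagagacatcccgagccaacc
Cxcl9: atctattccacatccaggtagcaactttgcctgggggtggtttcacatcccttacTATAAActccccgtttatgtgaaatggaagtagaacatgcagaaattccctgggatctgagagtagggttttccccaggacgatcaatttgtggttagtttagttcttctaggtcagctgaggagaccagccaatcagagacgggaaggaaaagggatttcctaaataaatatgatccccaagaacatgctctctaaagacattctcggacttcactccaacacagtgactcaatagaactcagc
Cxcl10 held 1 ISRE match, starting 213 bases before the start site, and 2 kappaB matches, starting 159 and 103 bases before it. Of 32851 promoters of this length, 3.44% held an ISRE match, 4.51% a kappaB match and 8.32% the TATA letters. Ccl12 and Ccl8 each held TATAAA, starting 31 and 32 bases before the start site, and no ISRE or kappaB match, and Cxcl9 held TATAAA 195 bases before its start site. No window of the 7 members held the interferon-gamma element GAS (TTCNNNGAA, in 8.3% of promoters). A match is a description of the letters and not evidence of a bound site.

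Levels are given as deposited, on a log2 scale normalized between samples. To compare genes with each other, the log2 of the exon length in kilobases was subtracted, a quantity called here the log2 level per kilobase. On that scale Cxcl12, Cx3cl1 and Cxcl16 stood well above the inflammatory genes. Cxcl12, which encodes a stromal chemokine that binds CXCR4, averaged 10.01 ± 0.22 after adrenalectomy and 9.84 ± 0.10 after sham surgery (SD, n = 4 each). Cx3cl1, which encodes the membrane-tethered chemokine fractalkine, averaged 9.78 and 9.64, and Cxcl16, the ligand of CXCR6, averaged 9.58 and 9.45. The ranges of Cxcl12 and Cx3cl1 overlapped within each group, and those of Cx3cl1 and Cxcl16 overlapped in sham samples. Overlap of ranges does not compare genes within the same sample, and the order of neighbours was not tested. Ccl28, a mucosal epithelial chemokine that binds CCR10 and CCR3, followed at 7.46 after adrenalectomy and 7.55 after sham surgery. Below it, in the same order in both groups, came Ccl8 (7.16 after adrenalectomy and 7.02 after sham surgery), Ccl7 (6.82 and 6.77), Ccl2 (6.60 and 6.48), Ccl12 (6.55 and 6.41), Cxcl10 (6.06 and 5.91) and Cxcl9 (4.90 and 4.82). The ranges of Ccl2 and Ccl12 overlapped in both groups, those of Ccl28 and Ccl8 after adrenalectomy, and those of the remaining neighbours were separate. On the deposited scale without the length term, the 6 inflammatory genes stood between a mean of 5.58 and 6.59, in the lowest 17.0% of the tested genes, and the other members between 9.41 and 12.76, at percentile 38.6 to 85.5.

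Of the 10 chemokine genes, 9 had a higher mean after adrenalectomy than after sham surgery, but no difference passed the threshold of an adjusted p of 0.05 over all tested genes. Among all 16889 tested genes, 49.5% had a higher mean after adrenalectomy and 1.71% were called, 157 higher (0.93%) and 132 lower (0.782%). Ccl12 and Cxcl10 were higher in every adrenalectomy sample than in any sham sample, 2 of 10 members against 6.3% of all tested genes (12.4% in either direction). At an unadjusted p under 0.05, 5 members were higher and none lower, against 9.73% higher and 9.48% lower among all tested genes (19.2% together). The median log2 difference of the members, adrenalectomy minus sham, was 0.13, beside -0.00088 for all tested genes, and the largest was 0.17. In whole stomach RNA, more cells of a type and more RNA per cell cannot be told apart.

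**Figure D1:**
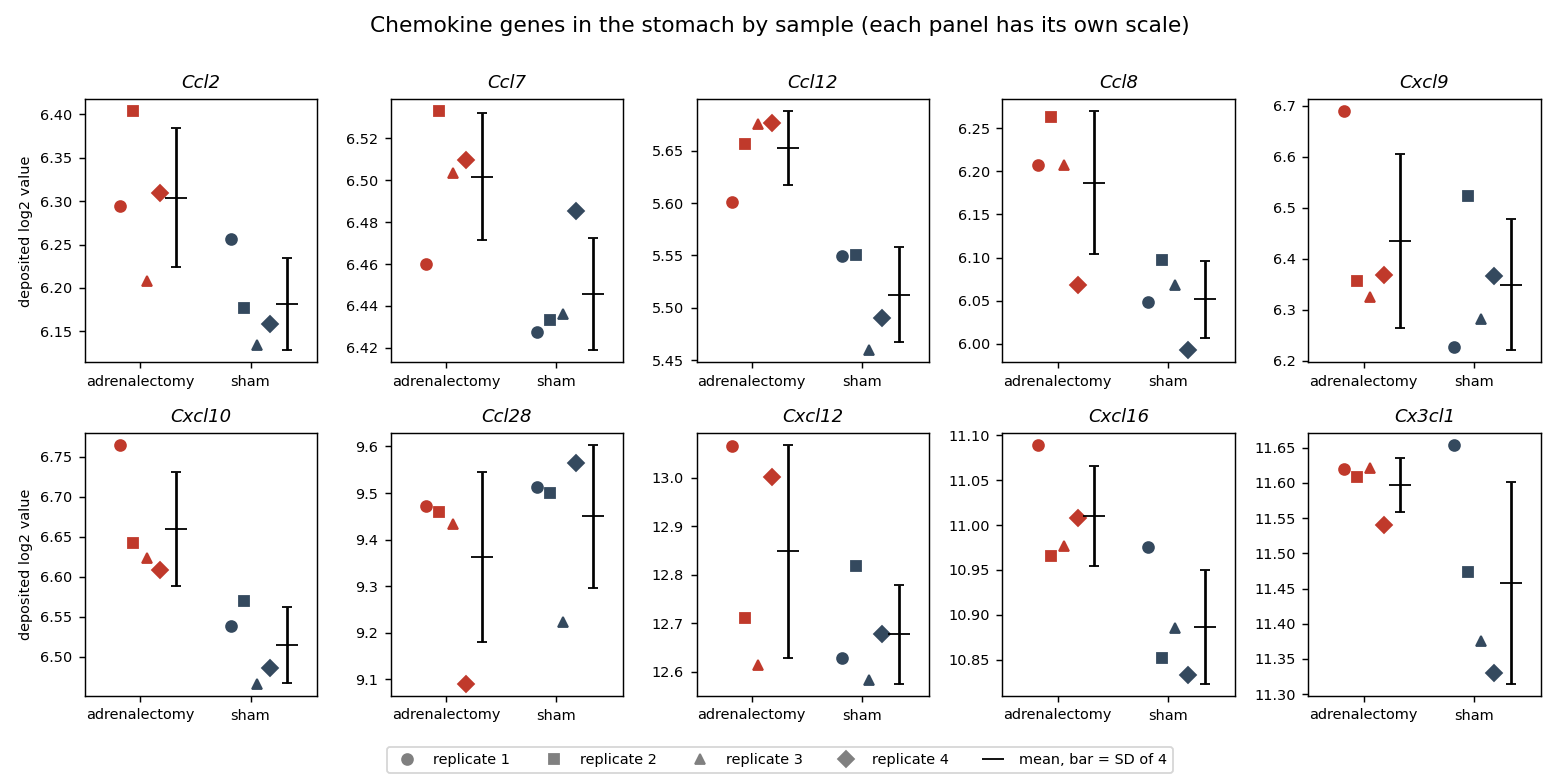
Deposited log2 value of each of the 10 chemokine genes (vertical axis, own scale per panel) in the 4 adrenalectomy samples at left and the 4 sham samples at right. Symbols stand for replicate numbers, and the black line with its bar is the mean with its SD. The groups are separate for Ccl12 and Cxcl10 and overlap for the other 8 genes.

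The spread of the lowest genes is narrow in the deposited values, with a median SD over the 8 samples of 0.0241 for 510 tested genes with a mean up to 4 and 0.0895 for 3172 genes between 8 and 10. No member lies in the lower of these ranges, and how far the authors' transformation shrank the members' differences is not known. Among the 1956 tested genes with a mean between 5 and 7, where the 6 inflammatory members lie, 14 were called (0.716%), with absolute log2 differences of 0.12 to 0.56. Among the 10265 genes between 9 and 14, where the other 4 members lie, 218 were called (2.12%), with absolute log2 differences of 0.10 to 1.04. The median SE of a difference was 0.0388 in the lower band and 0.0421 in the upper one.

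**Figure D2:**
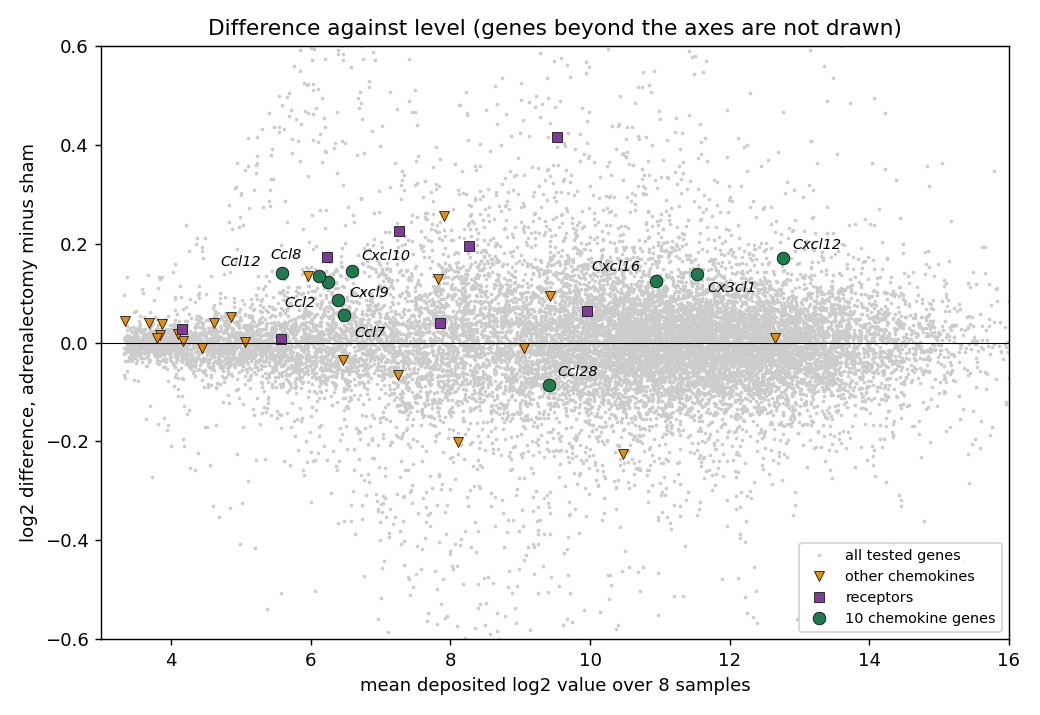
Log2 difference, adrenalectomy minus sham (vertical axis), against the mean deposited log2 value over the 8 samples (horizontal axis) for all tested genes (grey), the 10 chemokine genes (green circles), other chemokine genes (orange triangles) and receptor genes (purple squares). The cloud of all genes narrows at low values. Of the 10 chemokine genes, 9 lie above 0, and Ccl28 lies below.

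Ccl2, Ccl7, Ccl12 and Ccl8 lie in 1 cluster of CC chemokine genes on chromosome 11, in this order in RefSeq, with Ccl11 between Ccl7 and Ccl12. Ccl12, which encodes the mouse chemokine MCP-5, had the smallest p of the 10 genes. It stood at 5.60, 5.66, 5.68 and 5.68 after adrenalectomy, against 5.55, 5.55, 5.46 and 5.49 after sham surgery. Every adrenalectomy sample was above every sham sample, with the smallest gap between adrenalectomy replicate 1 and sham replicates 1 and 2. The log2 difference was 0.14 ± 0.03 SE (95% interval 0.071 to 0.21, unadjusted p = 0.00153), and the adjusted p of 0.0611 missed the threshold. It missed it in each of 17 alternative settings as well, with adjusted p-values of 0.0506 to 0.349.

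Ccl2, which encodes the main monocyte chemoattractant MCP-1, stood at 6.29, 6.40, 6.21 and 6.31 after adrenalectomy, against 6.26, 6.18, 6.13 and 6.16 after sham surgery. Of the adrenalectomy samples, 3 were above all sham samples, and adrenalectomy replicate 3 lay below sham replicate 1. Its log2 difference was 0.12 ± 0.05 SE (95% interval 0.016 to 0.23, adjusted p = 0.210). Ccl8, which encodes MCP-2, a ligand of CCR8 in the mouse, stood at 6.21, 6.26, 6.21 and 6.07 after adrenalectomy, against 6.05, 6.10, 6.07 and 5.99 after sham surgery. Here adrenalectomy replicate 4 was the low sample and lay within the sham range, while the other adrenalectomy samples lay above it. The log2 difference of Ccl8 was 0.14 ± 0.05 SE (95% interval 0.031 to 0.24, adjusted p = 0.166). Ccl7, which encodes MCP-3, stood at 6.46, 6.53, 6.50 and 6.51 after adrenalectomy, against 6.43, 6.43, 6.44 and 6.49 after sham surgery. Sham replicate 4 reached into the adrenalectomy range, above adrenalectomy replicate 1. The log2 difference of Ccl7 was 0.06 ± 0.03 SE (95% interval -0.010 to 0.12, adjusted p = 0.330). These 4 genes are related in sequence, and how reads that fit more than 1 of them were counted is not stated in the labels. Ccl11, which encodes the eosinophil attractant eotaxin and lies inside the cluster, is not a member and had a lower mean after adrenalectomy, with a log2 difference of -0.22 (adjusted p = 0.339), and -0.13 without sham replicate 4.

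The interferon-induced genes Cxcl9 and Cxcl10 are near neighbours on chromosome 5, with Art3 between them in RefSeq. Cxcl10, whose promoter above held the ISRE and kappaB letters, stood at 6.77, 6.64, 6.62 and 6.61 after adrenalectomy, against 6.54, 6.57, 6.47 and 6.49 after sham surgery. The groups did not overlap, and adrenalectomy replicate 1 was the highest sample. The log2 difference was 0.14 ± 0.04 SE (95% interval 0.044 to 0.25, adjusted p = 0.134), and 0.11 without adrenalectomy replicate 1 (adjusted p = 0.204). Cxcl9 stood at 6.69, 6.36, 6.33 and 6.37 after adrenalectomy, against 6.23, 6.52, 6.28 and 6.37 after sham surgery. Only adrenalectomy replicate 1 stood above the sham range, and the log2 difference of 0.09 ± 0.09 SE (adjusted p = 0.646) was 0.00064 without it and 0.14 without sham replicate 2.

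The regulators of the interferon response did not share 1 order of samples. Irf7, which encodes a transcription factor of the antiviral response, stood at 11.18, 11.26, 11.75 and 12.20 after adrenalectomy, against 10.56, 10.74, 10.88 and 10.80 after sham surgery. Adrenalectomy replicate 4 was thus the highest in Irf7. In Cxcl10 it was the lowest of its group, but close to replicates 2 and 3 (6.61 against 6.64 and 6.62). Adrenalectomy replicate 1 was the lowest of its group in Irf7 and the highest in Cxcl10. Irf1, which encodes an interferon-gamma-induced transcription factor, stood at 11.57, 11.36, 11.38 and 11.53 after adrenalectomy, against 11.11, 11.25, 10.92 and 11.12 after sham surgery. Irf1 was highest in adrenalectomy replicate 1, as Cxcl10 was. Whether either regulator is linked to the Cxcl10 values was not tested. Of 12 tested genes of interferon signalling, Socs1, a feedback inhibitor, rose (log2 difference 0.20, adjusted p = 0.0398) and no other was called. The call of Socs1 was lost with any sample other than sham replicate 1 left out (adjusted p up to 0.123). Irf9 differed by 0.27 (adjusted p = 0.0504), Irf1 by 0.36 (adjusted p = 0.0611) and Irf7 by 0.85 (adjusted p = 0.0884), and the median of the 12 genes was 0.10. Ifng itself, the inducer of Cxcl9, was below the filter on low values, at 0.15 to 0.17 in every sample.

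**Figure D3:**
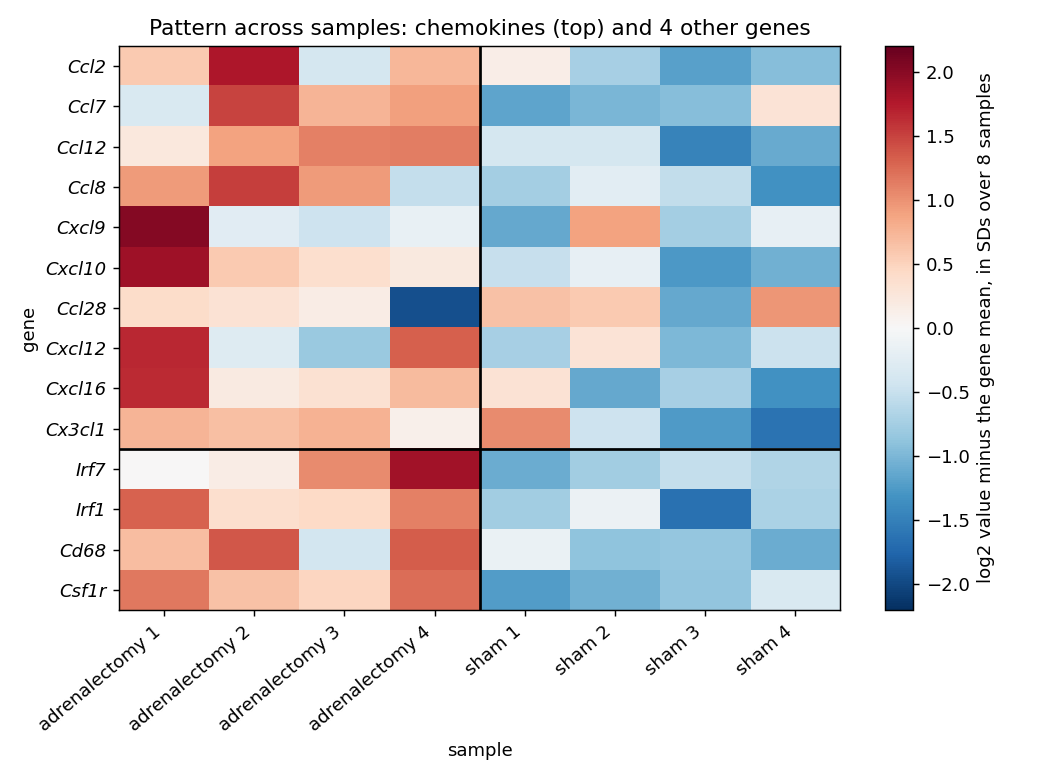
Log2 value minus the gene's mean over 8 samples, in SDs (colour), for the 10 chemokine genes above the line and for Irf7, Irf1, Cd68 and Csf1r below it, with adrenalectomy samples at left and sham samples at right. Adrenalectomy replicate 1 is the highest sample for Cxcl9, Cxcl10, Cxcl12 and Cxcl16, and adrenalectomy replicate 4 for Irf7 and Csf1r.

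Among the homeostatic genes, Cxcl16 and Cx3cl1 encode chemokines that are made as membrane proteins and released by proteases. Cxcl16 stood at 11.09, 10.97, 10.98 and 11.01 after adrenalectomy, against 10.98, 10.85, 10.89 and 10.83 after sham surgery. The groups overlapped, since sham replicate 1, the high sample of its group, reached the level of adrenalectomy replicates 2 and 3. The log2 difference was 0.12 ± 0.04 SE (95% interval 0.028 to 0.22, adjusted p = 0.167). In GENCODE M21, 20.5% of the exon bases of Cxcl16 are also exons of Zmynd15 on the other strand, and without the strand setting their reads cannot be told apart. Cx3cl1 stood at 11.62, 11.61, 11.62 and 11.54 after adrenalectomy, against 11.65, 11.47, 11.38 and 11.33 after sham surgery. Sham replicate 1 was the highest of all 8 samples, and the other sham samples lay below every adrenalectomy sample. The log2 difference was 0.14 ± 0.07 SE (95% interval -0.013 to 0.29, adjusted p = 0.298). Without sham replicate 1 it was 0.20 (adjusted p = 0.0414), the only case in which a member passed the threshold in any of the alternatives run. In that setting 633 of 16889 tested genes were called, against 289 with all samples.

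Cxcl12 stood at 13.07, 12.71, 12.61 and 13.00 after adrenalectomy, against 12.63, 12.82, 12.58 and 12.68 after sham surgery. Adrenalectomy replicates 1 and 4 were above all sham samples, and replicates 2 and 3 lay within the sham range. The log2 difference was 0.17 ± 0.10 SE (95% interval -0.070 to 0.41, adjusted p = 0.408), the largest of the 10 genes and also among the least certain. It was 0.10 without adrenalectomy replicate 1 and 0.25 without adrenalectomy replicate 3. Ccl28 was the only member with a lower mean after adrenalectomy. It stood at 9.47, 9.46, 9.43 and 9.09 after adrenalectomy, against 9.51, 9.50, 9.22 and 9.56 after sham surgery. Adrenalectomy replicate 4 was low, and the groups overlapped. The log2 difference of -0.09 ± 0.11 SE (95% interval -0.33 to 0.16, adjusted p = 0.682) became 0.0046 without that sample.

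**Figure D4:**
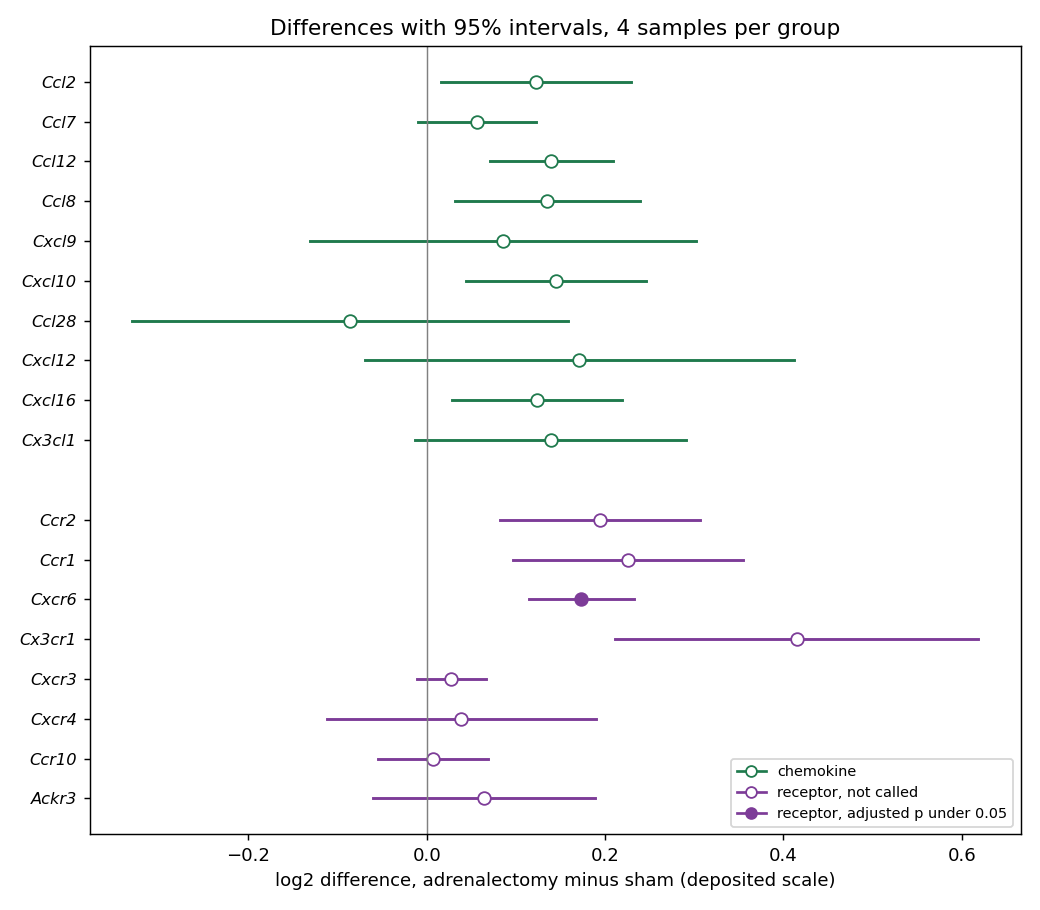
Log2 difference, adrenalectomy minus sham, with its 95% interval (horizontal axis) for the 10 chemokine genes (green, top) and 8 of their receptor genes (purple, bottom), 4 samples per group. Filled symbols mark an adjusted p under 0.05 over all tested genes. Cxcr6 is filled, and the intervals of Ccl2, Ccl12, Ccl8, Cxcl10 and Cxcl16 lie above 0.

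The receptors of these chemokines, with the scavenger Ackr3 among them, were examined next. Which cells carried them is not known from whole-stomach RNA. Of 10 receptor genes listed, 8 were tested, all 8 had a higher mean after adrenalectomy, 1 rose, none fell, and the median log2 difference was 0.12. For 4 of the 8 the groups did not overlap, all higher after adrenalectomy. Among all tested genes, 49.5% had a higher mean, 0.93% were called higher and 6.3% were higher without overlap (12.4% in either direction). Cxcr6, the receptor of Cxcl16, stood at 6.34, 6.31, 6.34 and 6.30 after adrenalectomy, against 6.14, 6.15, 6.12 and 6.19 after sham surgery. It rose 1.13-fold on the deposited scale (log2 difference 0.17 ± 0.03 SE, adjusted p = 0.0270). The groups were separate, with a gap wider than the range within either group. The call of Cxcr6 was lost without any sample other than sham replicate 1 (adjusted p up to 0.0970).

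Cx3cr1, the receptor of fractalkine on monocytes and tissue macrophages, stood at 9.55, 9.72, 9.77 and 9.87 after adrenalectomy, against 9.15, 9.23, 9.41 and 9.46 after sham surgery. The groups were separate, and the log2 difference of 0.42 ± 0.09 SE was the largest of these 8 receptors but missed the threshold (adjusted p = 0.0606). Ccr2, the receptor of Ccl2, Ccl7 and Ccl12, stood at 8.38, 8.39, 8.32 and 8.37 after adrenalectomy, against 8.29, 8.10, 8.11 and 8.18 after sham surgery. Its groups did not overlap, with a log2 difference of 0.19 ± 0.05 SE (adjusted p = 0.0890). Without sham replicate 1 the adjusted p was 0.0347, in a setting where 633 of all tested genes were called. Ccr1, which binds Ccl7 and other CC chemokines, stood at 7.29 to 7.50 after adrenalectomy and 7.11 to 7.24 after sham surgery (log2 difference 0.23, adjusted p = 0.0884). The remaining tested receptors, Cxcr3, Ccr10, Cxcr4 and Ackr3, showed smaller differences. Cxcr3 stood at the low level of 4.15 to 4.19 after adrenalectomy and 4.10 to 4.16 after sham surgery (log2 difference 0.03, 95% interval -0.012 to 0.066, adjusted p = 0.411). Ccr10 differed by 0.0066 (adjusted p = 0.910), Cxcr4, the signalling receptor of Cxcl12, by 0.04 (adjusted p = 0.776) and Ackr3, its scavenger, by 0.06 (adjusted p = 0.541). With single samples left out, the difference ranged from 0.014 without sham replicate 1 to 0.035 for Cxcr3, from 0.0068 without sham replicate 2 to 0.083 without adrenalectomy replicate 3 for Cxcr4, and from 0.04 without sham replicate 3 to 0.12 without sham replicate 2 for Ackr3. The sign of the Ccr10 difference turned under median centring and quantile normalization. Ccr3 and Ccr8 were below the filter on low values, at up to 1.69 and 2.38.

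**Figure D5:**
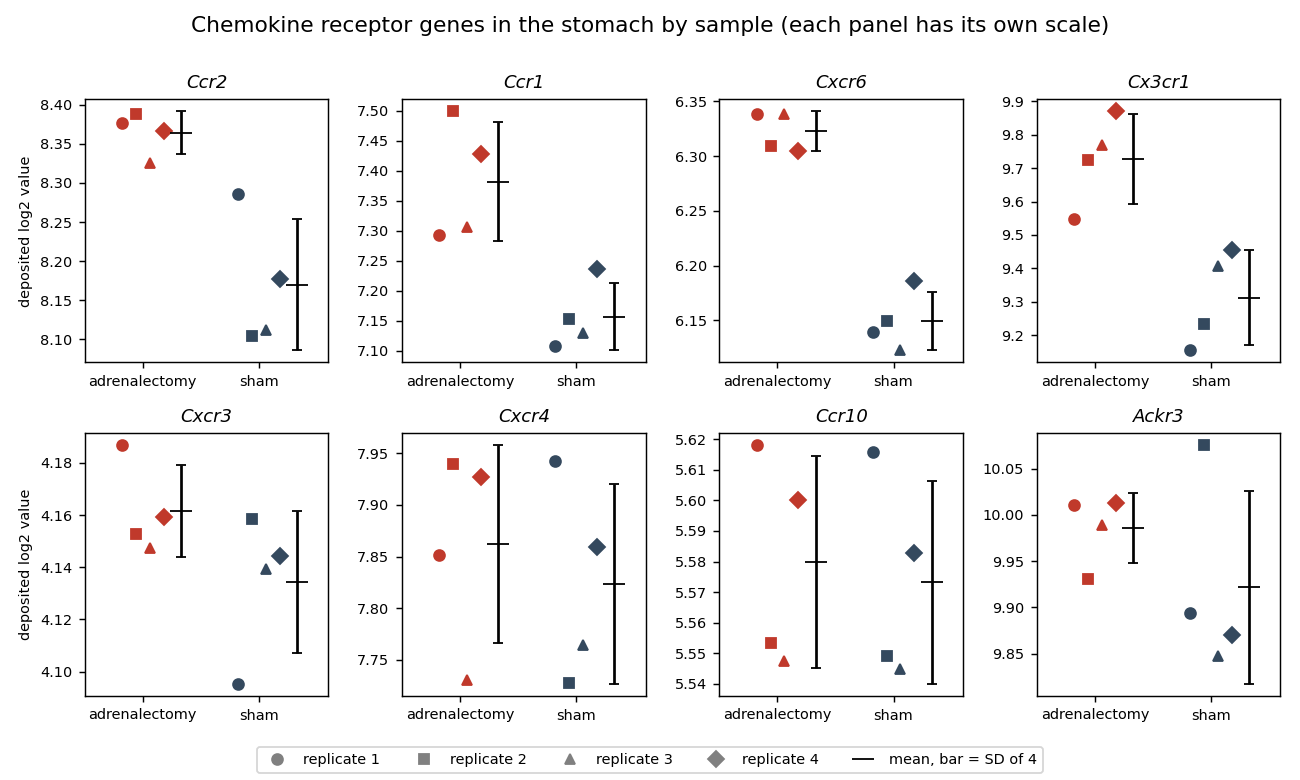
Deposited log2 value of 8 chemokine receptor genes (vertical axis, own scale per panel) in the 4 adrenalectomy samples at left and the 4 sham samples at right, with replicate symbols, mean and SD. The groups are separate for Ccr2, Ccr1, Cxcr6 and Cx3cr1 and overlap for Cxcr3, Cxcr4, Ccr10 and Ackr3.

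Markers of monocytes and macrophages, cells that carry Ccr1, Ccr2 and Cx3cr1, were measured in the same samples. Of 15 tested markers, 12 had a higher mean after adrenalectomy, 5 rose and none fell, with a median log2 difference of 0.29. For 9 the groups did not overlap, all higher after adrenalectomy. The shares over all tested genes were 49.5% with a higher mean, 0.93% called higher and 6.3% higher without overlap. Averaged over the list, the log2 value was 9.22 to 9.36 after adrenalectomy and 9.06 to 9.11 after sham surgery. Adgre1, which encodes F4/80, rose by 0.36 (adjusted p = 0.0161), the growth factor receptor gene Csf1r by 0.52 (adjusted p = 0.0223), and the complement genes C1qc, C1qb and C1qa by 0.38, 0.36 and 0.35 (adjusted p = 0.0317, 0.0317 and 0.0393). C1qa was named after its values were seen. Their calls were lost with single samples left out, among them sham replicates 2 and 3 and adrenalectomy replicate 4 for each of the 5 (adjusted p up to 0.111). The 3 markers with a lower mean were Ly6c2, of freshly recruited monocytes, at -0.10 (adjusted p = 0.465), and the macrophage receptor genes Mertk at -0.12 (adjusted p = 0.493) and Cd163 at -0.15 (adjusted p = 0.484), named after their values were seen. Without 1 sample these differences were as small as -0.048 for Ly6c2 (adrenalectomy replicate 3), -0.067 for Mertk (sham replicate 4) and -0.084 for Cd163 (adrenalectomy replicate 2). The part of these markers in the chemokine and receptor differences was not tested.

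Of 13 T and natural killer cell markers, 4 were tested and none was called, with a median of 0.0071. Cd3d, Cd3e and Cd3g were below the filter, at 2.48 to 3.30 in all samples, while Cd4 differed by 0.21 (adjusted p = 0.109). Of 6 B and plasma cell markers, 4 were tested and none was called, with a median of 0.11, Pou2af1 differing by 0.13 (adjusted p = 0.118) and Jchain by 0.41 (adjusted p = 0.305, and a difference of 0.18 without adrenalectomy replicate 2). Of 7 neutrophil markers, 3 were tested and none was called (median -0.01), with S100a9 at -0.47 (adjusted p = 0.248) and Csf3r at 0.13 (adjusted p = 0.192). Of 7 tested eosinophil and mast cell markers, the mast cell protease gene Mcpt1 rose by 1.16 (adjusted p = 0.0393) and no other was called (median 0.07), and its call was lost without any sample other than adrenalectomy replicate 1 and sham replicate 1 (adjusted p up to 0.122). Endothelial and fibroblast markers, cells that make Cxcl12 and Cx3cl1, had no called gene among 7 each, with medians of 0.03 and 0.12. The nearest to the threshold were Vwf at -0.39 (adjusted p = 0.0917) and Col3a1 at 0.14 (adjusted p = 0.263).

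No call was made in the rest of the chemokine family. Of 31 other chemokine genes, 21 were tested, 15 had a higher mean after adrenalectomy, none was called, and the median log2 difference was 0.02. Ccl22, a chemokine of dendritic cells and macrophages, came nearest, at 6.10, 6.06, 5.96 and 5.99 after adrenalectomy, against 5.87, 5.88, 5.91 and 5.92 after sham surgery (log2 difference 0.13, adjusted p = 0.0949). Its groups did not overlap. Ccl3 differed by 0.04 (adjusted p = 0.126), Cxcl1 by 0.04 (adjusted p = 0.166) and Xcl1 by 0.04 (adjusted p = 0.201), all 3 at low means under 4, where the spread of all genes is narrowest. Of 13 other chemokine receptors, 11 were tested and none was called (median -0.02). Ackr4, which scavenges CCL19 and CCL21, differed by -0.13 (adjusted p = 0.186) and Xcr1, of cross-presenting dendritic cells, by 0.12 (adjusted p = 0.197). Among 9 tested genes that process or hold chemokines, Mmp2, a matrix protease that can cleave CXCL12 and CCL7, rose by 0.21 ± 0.03 SE (adjusted p = 0.0325) and no other was called (median 0.08). The call of Mmp2 held only without sham replicate 1 or 4 when single samples were left out (adjusted p up to 0.105 otherwise). Adam10, a protease that releases CX3CL1 and CXCL16, differed by 0.10 (adjusted p = 0.299). Without sham replicate 1 its adjusted p was 0.0462, in a setting where 633 of all tested genes were called. Mmp12, a macrophage protease, differed by 0.23 (adjusted p = 0.294, and a difference of 0.14 without sham replicate 2). Ndst1, of heparan sulfate synthesis, differed by 0.08 (adjusted p = 0.258). None of 11 genes of NF-kB signalling and mRNA decay was called (median 0.04). Zfp36, which encodes an mRNA decay factor for cytokine transcripts, differed by 0.15 (adjusted p = 0.144), Nfkbia, the inhibitor of NF-kB that glucocorticoids induce, by -0.20 (adjusted p = 0.181) and Tnfaip3, a feedback inhibitor of NF-kB, by 0.09 (adjusted p = 0.205).

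The pattern of each member over the 8 samples was set against the patterns of 15760 other tested genes by Pearson's r, as a description over 8 samples that share group and normalization. Ccl2 was most like the macrophage lysosome gene Cd68 (r = 0.942), then Gtf3c1 and Sass6. Ccl12 was most like Nup188 (r = 0.983), Sh3tc1 and Hspa13, and Ccl8 like Arid5a (r = 0.971), Timm10b and Ears2. Cxcl10 was most like Csf2rb2, a cytokine receptor subunit of myeloid cells (r = 0.984), Gnpnat1 (r = 0.980) and Ddx55. Cxcl16 was most like Clca4b (r = 0.984), Tsen34 and the lysosomal protease gene Ctsz, and Cxcl12 like the mesenchymal transcription factor gene Hlx (r = 0.968), Hapln4 and Pltp. Ccl7 was most like Pfn2 (r = 0.977), Snrpf and Swsap1, Cxcl9 like Snap47 (r = 0.969), Rxrg and Tcte2, Cx3cl1 like Ndufaf3 (r = 0.978) and Btbd9, and Ccl28 like Uchl1 (r = 0.978), Fiz1 and Zfp839. Among the members themselves, Cxcl10 and Cxcl16 were most alike (r = 0.833), and Ccl28 and Cxcl12 least alike (r = -0.248).

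Several samples differed in ways that touch these results. The 9 gastric epithelial markers stood at means of 14.23 to 23.23. Glucocorticoid-induced genes checked the surgery. Per1, Klf9, Pdk4 and Fkbp5 fell, by 1.04, 0.68, 0.85 and 1.03 on the log2 scale (adjusted p = 0.00500, 0.00717, 0.00825 and 0.0431), and Tsc22d3 differed by -0.24 (adjusted p = 0.102). The call of Fkbp5 was lost without any sample other than sham replicate 1 (adjusted p up to 0.124). Averaged over 10 liver genes, the log2 value reached 14.50 in adrenalectomy replicate 1, while its group otherwise ranged from 9.43 to 11.89, against 9.32 to 11.71 in sham samples. None of these genes was called (median 1.80), with Alb nearest at 3.27 (adjusted p = 0.373), and at 1.87 without adrenalectomy replicate 1. That of 9 skeletal muscle genes was 6.64 to 6.80 after adrenalectomy, against 9.02 and 8.97 in sham replicates 2 and 3 and 6.71 and 7.05 in the other sham samples (median -1.05, with Tnnt3 at -1.87, adjusted p = 0.136). That of 10 squamous epithelium genes was 11.08 to 12.86 after adrenalectomy and 11.87 to 13.61 after sham surgery (median -0.78, with Krt4 at -1.20, adjusted p = 0.230). Adrenalectomy replicate 1, the sample with the highest liver average, held the highest value of 4 members, Cxcl9, Cxcl10, Cxcl12 and Cxcl16. With that liver average added to the fit, the log2 difference of Cxcl9 was -0.0066, and those of Cxcl10, Cxcl12 and Cxcl16 were 0.11, 0.13 and 0.11. In the same fit it was 0.16 for Ccl12, 0.15 for Cx3cl1, 0.12 for Ccl8 and Ccl2, 0.06 for Ccl7 and -0.19 for Ccl28. With the squamous and muscle average instead, Cxcl9, Cxcl10, Cxcl12 and Cxcl16 differed by 0.16, 0.15, 0.22 and 0.10. The part of liver, squamous or muscle RNA in the member differences was not tested. Leaving out 3 samples at once, adrenalectomy replicate 1 with sham replicates 2 and 3, 9 members still had a higher mean after adrenalectomy, none was called, and the log2 difference of Ccl12 was 0.15.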

How the data were processed

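RNA was extracted from whole stomachs with Trizol and columns, made into TruSeq libraries and sequenced on a NextSeq500, per the labels' protocols. The submitters' processing notes list build mm9 and, with no versions, DESeq2, featureCounts, STAR and Trim Galore. The annotation, the strand setting and the handling of shared reads are not stated there. The authors deposited log2 values normalized between samples, by a transformation that is not named, with no counts, so depth is unknown and counting error could not be given. Of the table's columns, 8 were used and 8 named for samples outside the labels were not analysed here, and 26 rows with names turned into dates were left out.

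Genes with a mean linear value of at least 10 over the 8 samples were tested (16889 of 24481). The test was limma's moderated test (limma 3.58.1, R 4.3.3) with a trend on intensity and no term but group. Two-sided p-values were adjusted by Benjamini-Hochberg over every tested gene, and 0.05 was the threshold. Differences are adrenalectomy minus sham with the SE of that fit, and the code was tested on simulated data. Exon lengths are unions of exons in GENCODE M21 (GRCm38).

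The members and gene lists were chosen with earlier results of these data known. Named genes are the members, their receptors, 5 glucocorticoid-induced genes, up to 4 genes of smallest p from each other list, and the 3 genes most like each member. Alternatives were other filters, scalings, variance models, a pseudocount of 10, a replicate block, samples left out and covariates for liver and for squamous and muscle genes. Ccl11, C1qa, Ly6c2, Mertk and Cd163 fell outside the rule, and a few genes it names are not reported here and were left out of the lists.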

Additional observations from a re-analysis of the deposited data

Results flagged for a closer look

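In 36 groups of 4 samples (the 10 chemokine genes and 8 receptor genes, in each group), the sample farthest from the others was compared with the range of its group, and the gap exceeded Dixon's limit for 4 samples in 4 groups. By chance about 1 in 20 groups exceeds it. Cxcl9 stood at 6.69 in adrenalectomy replicate 1, and the rest of that group at 6.33 to 6.37. Ccl28 stood at 9.09 in adrenalectomy replicate 4, against 9.43 to 9.47 in the others. Cx3cl1 stood at 11.54 in adrenalectomy replicate 4, against 11.61 to 11.62 in the others. Ccl7 stood at 6.49 in sham replicate 4, against 6.43 to 6.44 in the other sham samples.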

How the results depend on the processing

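The count of called genes, 289, moved to 170 with no filter on low values, 156 under median centring, 116 with the liver covariate and 5 with the squamous and muscle covariate. It was 0 without adrenalectomy replicate 1 and sham replicates 2 and 3 together (1822 genes at an unadjusted p under 0.05). With single samples left out, the count ranged from 27 without sham replicate 3 to 633 without sham replicate 1. The number of members called was 0 in each setting except without sham replicate 1, where it was 1 (range 0 to 1). Members with a higher mean numbered 3 of the 4 that pass a filter at a linear mean of 100. Receptors called numbered 1, and 0 under median centring and quantile normalization, with either covariate and without the 3 samples together. With single samples left out they numbered 0 to 2. Under the filter at 100 the number was also 0, but Cxcr6 did not pass that filter and was not tested there. Differences changed sign for Ccl28 without adrenalectomy replicate 4 (0.0046, and -0.16 at the other end without sham replicate 3), for Cxcl9 with the liver covariate (-0.0066), for Cxcr4 without the 3 samples (-0.035) and with the squamous and muscle covariate (-0.0083), and for Ccr10 under median centring (-0.0059), quantile normalization (-0.0063), the squamous and muscle covariate (-0.016), the liver covariate (-0.0039), without the 3 samples (-0.032) and with single samples left out (-0.0062 to 0.021). The cause was not tested. With replicate number as a replicate block, 4 genes, 0 members and 0 receptors were called. The deviations of same-numbered samples from their group means correlated with mixed signs (r = -0.289, 0.448, -0.118 and -0.635 for numbers 1 to 4). Whether same-numbered samples share more than a number is not known. With 4 samples a group, the member differences that missed the threshold are not shown to be absent.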
